A study of Mus musculus with 6 samples.

Results

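ATF4 stress response and amino acid supply genes are 34 genes listed by name: ATF4 and its partner factors, stress regulators that ATF4 is known to induce, enzymes that make or convert amino acids, and amino acid transporters. All 34 were found among the 21958 genes with values in the deposited table. A second row of the table also carries the name Ddit3; it has 0 counts in every library and was not used. The samples were 6 RNA-seq libraries of RAW264.7 cells, a mouse macrophage-like tumour line, and every library came from cells given lipopolysaccharide (LPS), a bacterial membrane component that macrophages sense. LPS was given alone for 3 libraries, and together with BMSCs (an abbreviation commonly read as bone marrow stromal cells) in co-culture for the other 3. The labels call the replicates biological and state no dose, duration, BMSC species or cell contact, and the title of LPS replicate 3 names the line RAW264.9 where its cell line tag says RAW264.7. A scaffold with BMSCs and bFGF, a growth factor, appears in the design text, whereas the labels of the sequenced samples name BMSCs only. With no library lacking LPS, each difference below is co-culture against LPS alone.

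ATF4 is a transcription factor whose own protein is made mainly when the initiation factor eIF2 is phosphorylated, which happens under amino acid shortage, misfolded protein in the endoplasmic reticulum, double-stranded RNA or haem shortage. ATF4 pairs with C/EBP-type factors on DNA and turns on genes that import amino acids, make serine, asparagine and the folate-bound carbon units used for nucleotides, and charge tRNAs. It also turns on regulators that damp the response, such as the eIF2 phosphatase subunit encoded by Ppp1r15a. In macrophages activated by LPS, cystine import through Slc7a11 and serine synthesis are known parts of this supply. ATF4 is controlled largely at translation, so mRNA levels do not measure ATF4 activity.

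Genes of the ATF4 module were mostly higher with BMSC co-culture, and the stress regulators had the largest differences. Of the 34 members, 31 passed the filter on low counts, 26 of these rose, 3 fell and 2 did not pass an adjusted p of 0.05 (edgeR's quasi-likelihood test, Benjamini-Hochberg adjustment over 11103 genes). Among all genes tested 75.5% were called, 37.5% higher and 38% lower, so calls are common in this comparison. At least 2-fold rises were found for 12 members, against 8.31% of all genes tested, and falls of that size for 0 members, against 10.2%. For 27 members every co-culture library lay above every LPS library (39.8% of all genes tested) and for 4 every one lay below (40.4%). The median log2 fold change of the tested members was 0.84, beside 0.001 over all genes tested. By role, the median was 2.17 for 7 stress regulators, 0.87 for 5 transcription factors, 0.73 for 5 enzymes of asparagine, cysteine, proline and alanine, 0.45 for 7 serine and one-carbon enzymes and 0.25 for 7 transporters. With an adjustment for gene length and GC content, described below, these medians were 1.87, 0.94, 0.58, 0.18 and 0.36, so the order of the serine enzymes and the transporters turned. Fewer cells of a type and less RNA per cell cannot be told apart in bulk libraries.

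**Figure D1:**
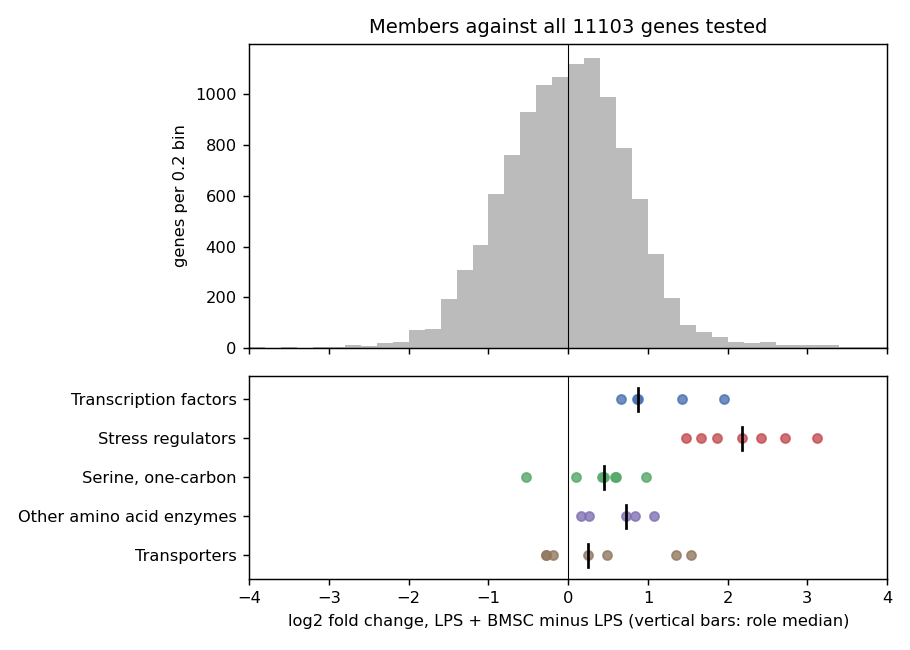
Upper panel: number of genes in each 0.2-wide bin of log2 fold change (co-culture minus LPS) over all 11103 genes tested; the axis ends at 4 in both directions, and 37 genes beyond it are not drawn. Lower panel: each tested member as a point by role, with the role median as a vertical bar; all 7 stress regulators lie above 1.4, while the transporters lie on both sides of 0 in these values, which carry no length and GC adjustment.

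Total counts ran from 17716460 to 22539884 per library, and 3 counts, taken as the detection floor, are 0.133 to 0.169 CPM. Macrophage markers were present in every library, and their summed level was 16807 to 17233 CPM with LPS and 26174 to 29039 CPM in co-culture. Lyz2 (mean 10964 CPM with LPS and 17948 CPM in co-culture) and Cd14 (3153 and 5801 CPM) made up most of that sum. Of the 10 macrophage markers 6 were called higher and 1 lower, beside 37.5% and 38% of all genes tested. Adgre1, Csf1r and Itgam did not pass (log2 0.009, 0.007 and 0.027). With the length and GC adjustment described below, Cd68 was instead called lower (log2 -0.24). Tyrobp (-0.03) and the lower gene Ptprc (0.03) then lost their calls. Of 16 stromal markers, 11 had at most 3 counts in every library, and Col1a2, Col3a1, Col6a1, Postn, Thy1 and Cxcl12 had 0 in all of them. The summed stromal level, 20.01 to 20.41 CPM with LPS and 27.57 to 30.04 CPM in co-culture, came mostly from Acta2 and Eng, and Acta2 was called higher (log2 0.85) and Lum lower (log2 -1.41). The part of these markers in the members' differences was not tested. Pairs of co-culture libraries differed more than pairs of LPS libraries, with a chi-square over its degrees of freedom of 5.16 to 26.82 against 1.71 to 2.11. Fold changes also followed gene length and GC content. With genes in 4 equal bins, the median log2 fold change went from 0.52 in the shortest bin to -0.51 in the longest, and from -0.46 in the bin with least GC to 0.39 in that with most. Values with this trend removed are given as the length- and GC-adjusted log2 fold change wherever a member's call or direction differed. With adjustment, 26 members were called higher and 2 lower (35.4% and 36% of all genes tested), and the member median was 0.58. The members called were not all the same. Phgdh, Aldh18a1 and Slc1a5 lost a higher call, and Psat1 gained one. Slc7a11 and Slc38a2 went from lower to higher, and Slc6a9 was called lower.

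Promoters of the members were searched for the C/EBP-ATF response element (CARE), to which ATF4 dimers are known to bind. The motif was TGATGNAA, or TTNCATCA when read on the other strand, in the 250 bases before the RefSeq start site (GRCm38.p6). RefSeq promoters were at hand for 28 members, and 7 of these (25%) held a CARE in at least 1 promoter, against 3.91% of 27025 genes. Members were listed for their link to ATF4, so an excess over all genes is built in and says nothing about co-culture. The 27025 genes also take in genes outside the 11103 tested. The 7 members with a CARE were Chac1, Nupr1, Atf3, Pycr1, Asns, Slc7a11 and Vldlr. The stretches below show the 6 of these that were tested, in order of log2 fold change, with the motif in capitals and up to 30 bases on either side, and none goes past the start site. They are printed to show the element in genes that differ widely in fold change. The stretches lie at chr2:119351019-119351086 (Chac1, + strand), chr7:126625543-126625610 (Nupr1, - strand), chr1:191183406-191183473 (Atf3, - strand), chr11:120643814-120643881 (Pycr1, - strand), chr6:7693210-7693262 (Asns, - strand) and chr3:50443623-50443709 (Slc7a11, - strand).
Chac1: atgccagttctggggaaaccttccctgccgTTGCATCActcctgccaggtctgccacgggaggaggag
Nupr1: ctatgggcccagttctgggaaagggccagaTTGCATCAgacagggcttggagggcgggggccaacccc
Atf3: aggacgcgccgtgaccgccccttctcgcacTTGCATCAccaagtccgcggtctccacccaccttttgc
Pycr1: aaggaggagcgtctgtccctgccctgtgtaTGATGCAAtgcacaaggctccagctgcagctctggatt
Asns: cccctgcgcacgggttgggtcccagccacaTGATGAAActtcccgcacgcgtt
Slc7a11: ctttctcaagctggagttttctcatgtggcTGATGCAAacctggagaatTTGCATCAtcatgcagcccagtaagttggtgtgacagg

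The first motif base lay 193 bases before the start in Chac1, 110 in Nupr1 and in Atf3, 103 in Pycr1 and 23 in Asns, and the pair in Slc7a11 began 66 and 47 bases before it. Log2 fold changes of these 6 genes ran from -0.28 (Slc7a11) to 3.12 (Chac1), with 5 higher and 1 lower. The lower gene is Slc7a11, which was higher by 0.58 with length and GC adjusted (adjusted p 1.96e-06); all 6 were then called higher, from 0.58 to 2.36. The 20 tested members whose searched promoters held no CARE had a range of -0.28 to 2.72, with 17 higher and 1 lower. With adjustment the range was -0.44 to 2.09, with 17 higher and 1 lower, but not the same genes. Phgdh and Aldh18a1 lost their higher call, and Psat1 and Slc38a2 gained one. The lower gene was Slc38a2 without adjustment and Slc6a9 with it. Both the CARE and the no-CARE set come from the tested members, of which 83.9% were higher. Among all genes tested 37.5% were higher and 38% lower, or 35.4% and 36% with adjustment. A cAMP response element (CRE, TGACGTCA, the same on both strands, which cannot match the same 8 bases as CARE) was found in 1 member, Ppp1r15a, 12 bases before its start at chr7:45526269-45526310 (- strand), and in 1.77% of all genes.
Ppp1r15a: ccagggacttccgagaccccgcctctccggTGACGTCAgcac

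A motif match is a description of the letters and was not tested as a binding site here.

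All 5 transcription factors rose. Atf4 itself stood at 264, 271 and 263 CPM with LPS and at 512, 480 and 456 CPM in co-culture (CPM after TMM scaling, replicates 1 to 3). The groups did not overlap, and the rise was 1.81-fold (log2 0.86, SE 0.06, adjusted p 1.38e-06 in the edgeR test), or 0.34 length- and GC-adjusted. Ddit3 encodes CHOP, a C/EBP-type factor linked to cell death under prolonged stress. Its values were 12.3, 12.5 and 12.4 CPM with LPS and 59.9, 41.6 and 41.8 CPM in co-culture, a 3.86-fold rise (log2 1.95, SE 0.14, adjusted p 2.25e-06). The LPS libraries were nearly equal for Ddit3, and co-culture replicate 1 was the highest. Atf3, an early stress and LPS-induced repressor, stood at 143, 148 and 140 CPM with LPS and 448, 347 and 366 CPM in co-culture, 2.69-fold higher (log2 1.43, SE 0.09). Atf5, which like Atf4 is translated under stress, rose 1.83-fold (log2 0.87, SE 0.11), or 0.17 length- and GC-adjusted with an adjusted p of 0.0315. Cebpg, a dimer partner of ATF4, rose 1.59-fold (log2 0.66, SE 0.08). Its adjusted value was larger, at 1.08; its transcript is long and low in GC (5621 bases in the table and 43.3% GC).

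The 7 tested stress regulators all rose, each more than 2-fold, with adjusted p from 1.15e-07 (Ppp1r15a) to 3.01e-06 (Sesn2) in the edgeR test. Chac1, an enzyme that degrades glutathione, had the largest change of any member. It stood at 9.23, 8.38 and 7.39 CPM with LPS and at 93.1, 62.4 and 60.4 CPM in co-culture, 8.68-fold higher (log2 3.12, SE 0.18). The SD of Chac1 was 0.921 CPM with LPS and 18.3 CPM in co-culture, where replicate 1 was 1.52 times the mean of replicates 2 and 3. Trib3, a pseudokinase that restrains ATF4 and the kinase AKT, rose from 8.92, 9.14 and 8.90 CPM to 73.7, 52.2 and 51.0 CPM (log2 2.72, SE 0.15). Ppp1r15a, which encodes GADD34, the inducible subunit that recruits the phosphatase to eIF2, was at 22.2, 24.8 and 24.5 CPM with LPS and 146, 123 and 114 CPM in co-culture (log2 2.42, SE 0.10). For both genes the lowest co-culture library was several times the highest LPS library. Nupr1, a small stress-induced nuclear protein, rose from 27.0, 24.8 and 24.1 CPM to 136, 106 and 100.3 CPM (log2 2.17, SE 0.12).

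The remaining regulators include genes linked to mTORC1, the kinase complex that drives growth when amino acids are present. Eif4ebp1 encodes 4E-BP1, a brake on cap-dependent translation that mTORC1 releases. It rose 3.64-fold, from 52.9, 51.6 and 47.3 CPM to 227, 176 and 148 CPM (log2 1.86, SE 0.14). Sesn2, a leucine-binding inhibitor of mTORC1, rose 3.16-fold, from 20.1, 20.8 and 25.5 CPM to 82.2, 68.4 and 59.6 CPM (log2 1.66, SE 0.13). Stc2, a secreted glycoprotein, rose 2.79-fold, from 20.4, 17.9 and 22.3 CPM to 63.8, 55.5 and 50.5 CPM (log2 1.48, SE 0.11). In each of these 3 genes replicate 1 was the highest co-culture library and no groups overlapped. Length- and GC-adjusted log2 fold changes of the 7 regulators ran from 1.28 (Sesn2) to 2.36 (Chac1), and all 7 were called higher. Vldlr, a lipoprotein receptor named as an ATF4 target, had 0 counts in all 6 libraries and was not tested.

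**Figure D2:**
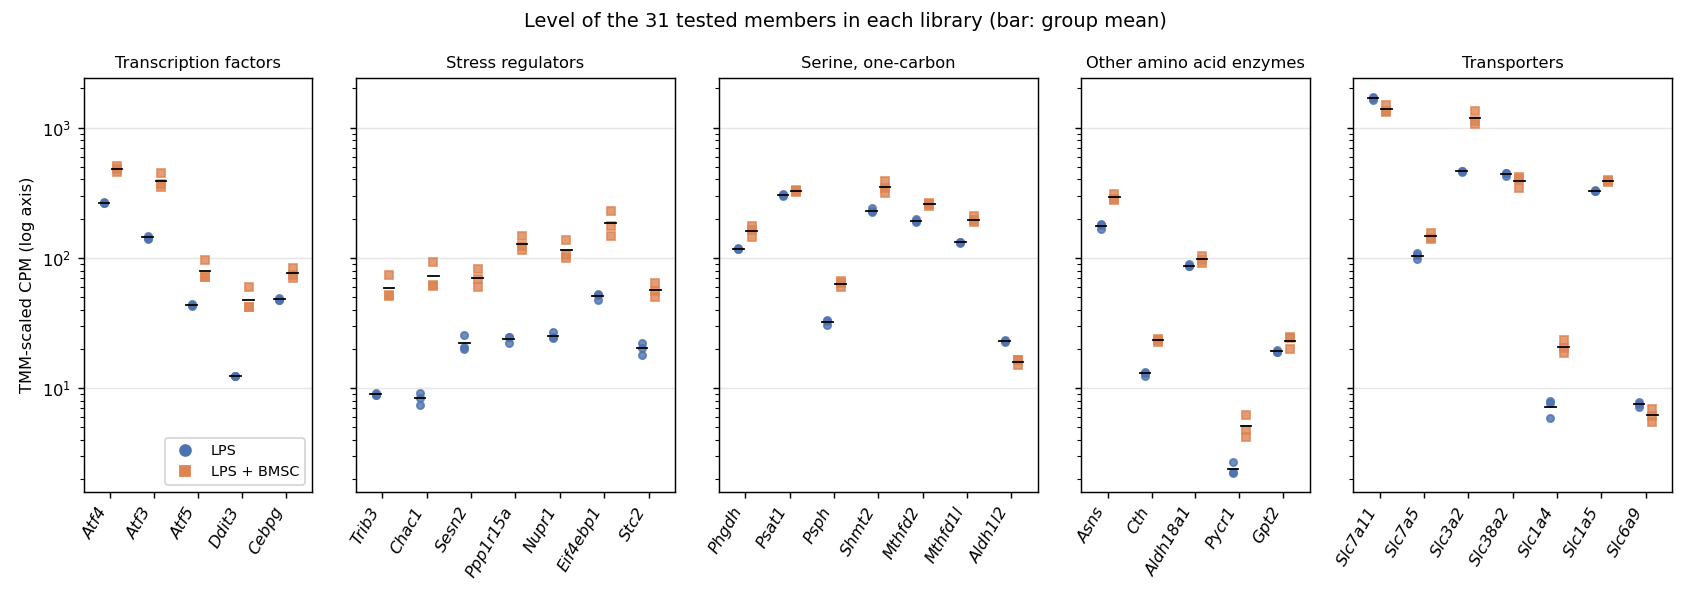
TMM-scaled CPM (log axis) of the 31 tested members in each of 3 LPS libraries (circles) and 3 co-culture libraries (squares), with group means as short bars. The groups do not overlap for any of the 31. Among all genes tested, 39.8% had every co-culture library above every LPS library and 40.4% had every one below. Chac1 goes from about 8.33 to 71.98 CPM while Psat1 stays near 305 to 326 CPM.

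Serine synthesis and mitochondrial one-carbon enzymes rose less, with 5 of 7 higher, 1 lower and 1 not passing. Serine is made from a glycolytic intermediate by PHGDH, PSAT1 and PSPH in turn, and these genes differed in their change. Phgdh, the first step, rose 1.37-fold (log2 0.45, SE 0.07, adjusted p 2.60e-04), but its length- and GC-adjusted log2 fold change was -0.07 with an adjusted p of 0.149. Psat1 stood at 310, 302 and 301 CPM with LPS and 330, 328 and 319 CPM in co-culture. All co-culture values were above the LPS values by a small margin, and the difference did not pass (log2 0.10, SE 0.05, adjusted p 0.0979). It was -0.08 with library totals in place of TMM and 0.14 length- and GC-adjusted (adjusted p 0.0134), and it passed without co-culture replicate 1 (adjusted p 0.0282). Psph, the last step, rose 1.96-fold from 32.3 ± 1.68 to 63.2 ± 3.13 CPM (mean ± SD, n = 3 each; log2 0.97, SE 0.07), with 0.96 after adjustment.

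The carbon units taken from serine enter the folate cycle in mitochondria through SHMT2, MTHFD2 and MTHFD1L. Shmt2 rose 1.51-fold (log2 0.59, SE 0.08), Mthfd1l 1.498-fold (log2 0.58, SE 0.06) and Mthfd2 1.34-fold (log2 0.42, SE 0.05). Length- and GC-adjusted, these were 0.18 for Shmt2, 0.48 for Mthfd1l and 0.30 for Mthfd2, all still called higher. Aldh1l2, which burns the carbon unit to carbon dioxide inside mitochondria, moved the other way. Its values were 22.98, 23.46 and 22.77 CPM with LPS and 16.44, 14.95 and 16.37 CPM in co-culture, 1.45-fold lower (log2 -0.53, SE 0.08, adjusted p 1.31e-04), or -0.19 after adjustment (adjusted p 0.0468). The call was lost with the adjustment and a replicate block together (adjusted p 0.0677). Of the enzymes for other amino acids, all 5 tested rose. Asns, which makes asparagine, rose 1.65-fold (log2 0.73, SE 0.06) and Cth, which makes cysteine from cystathionine, 1.79-fold (log2 0.84, SE 0.08). Pycr1, the last step of proline synthesis, was low: 2.23, 2.71 and 2.26 CPM with LPS and 6.23, 4.25 and 4.75 CPM in co-culture (log2 1.08, SE 0.18). The groups did not overlap, although the co-culture libraries spread widely.

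Calls for 2 of the enzymes rested on narrow margins. Aldh18a1, the first step of proline synthesis, was 1.11-fold higher (log2 0.15, SE 0.06, adjusted p 0.0422), and its direction turned with library totals (-0.02) and with the length and GC adjustment (-0.05). It also lost its call under DESeq2 (adjusted p 0.0647), with no expression filter (0.0732), with a replicate block (0.0585), and without any 1 of the LPS libraries (0.0856 to 0.143) or co-culture replicate 2 (0.153). Gpt2, the mitochondrial alanine transaminase, was 1.20-fold higher (log2 0.26, SE 0.10, adjusted p 0.0316). It lost its call with library totals (log2 0.08, adjusted p 0.455), on FPKM (0.480), under DESeq2 (0.0502), without any 1 of the LPS libraries (0.0692 to 0.0982) or without co-culture replicate 3 (0.0805). Cbs, which makes cystathionine and so feeds Cth, had 1, 9 and 3 counts with LPS and 6, 3 and 3 in co-culture. Those counts lie near the floor, and the gene was not tested.

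**Figure D3:**
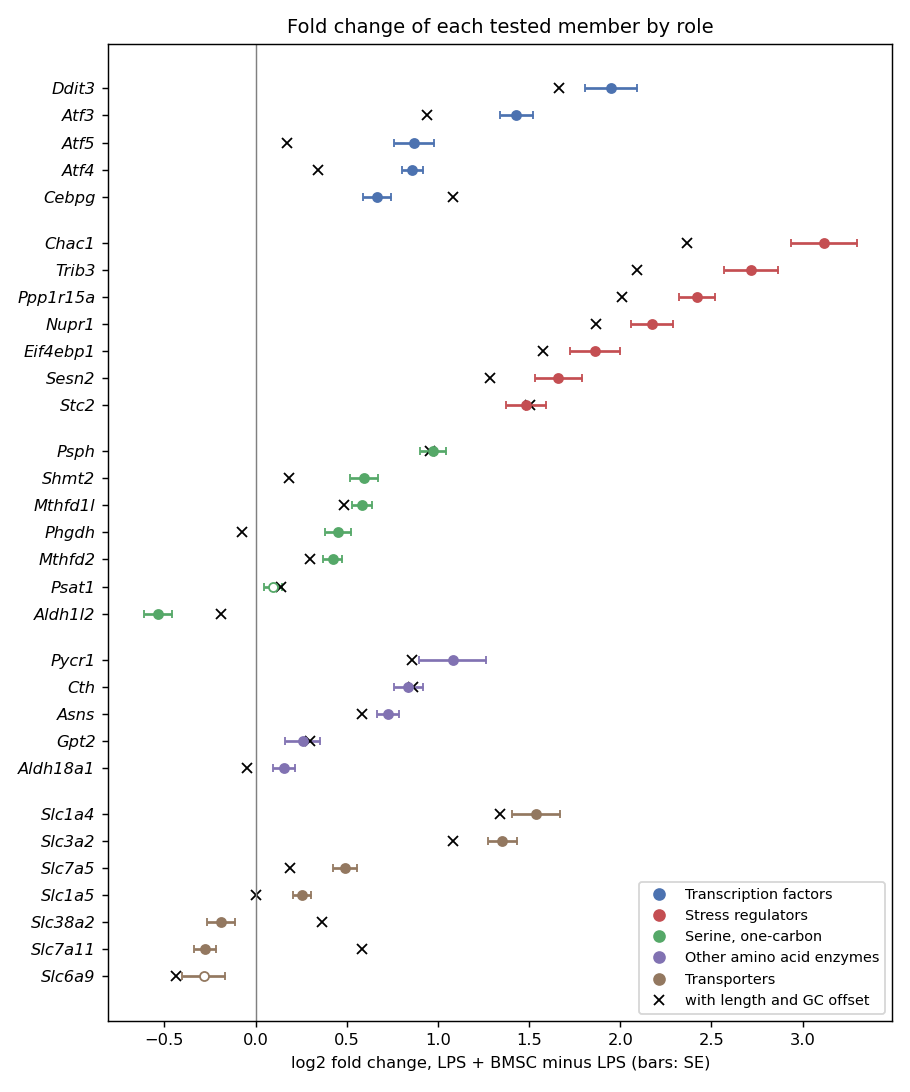
Log2 fold change (co-culture minus LPS) of each tested member with its SE, coloured by role; open circles are the members that did not pass an adjusted p of 0.05, and crosses are the values after the length and GC adjustment. The crosses of Slc7a11 and Slc38a2 lie above 0 while their circles lie below, and the cross of Phgdh lies just below 0.

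The transporters divided, with 4 of 7 tested higher, 2 lower and 1 not passing, or 5 higher and 1 lower with adjustment. Slc3a2 encodes 4F2hc, the heavy chain that carries several light-chain transporters to the cell surface. It stood at 458, 464 and 465 CPM with LPS and at 1341, 1128 and 1073 CPM in co-culture, 2.55-fold higher (log2 1.35, SE 0.08, adjusted p 7.76e-07). The rise held after adjustment, at 1.08. Its light chains had lower log2 fold changes. Slc7a11 encodes xCT, which imports cystine in exchange for glutamate, and stood at 1712, 1619 and 1693 CPM with LPS and 1330, 1328 and 1485 CPM in co-culture. Every co-culture library was below every LPS library, and the gene was 1.21-fold lower (log2 -0.28, SE 0.06, adjusted p 0.00177). With the length and GC trend removed it was instead higher, by 0.58 (adjusted p 1.96e-06). Its table length of 13922 bases is the longest of the members, and its GC content of 40.7% is the lowest. The direction of Slc7a11 thus depends on that adjustment. Slc7a5, the light chain LAT1 for large neutral amino acids, rose 1.41-fold (log2 0.49, SE 0.07), or 0.19 adjusted.

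Ratios of deposited FPKM within a library do not depend on scaling between libraries. The ratio of Slc3a2 to Slc7a11 was 1.06, 1.13 and 1.08 with LPS and 3.98, 3.35 and 2.85 in co-culture. The mean ratio was 3.11 times higher in co-culture, but 1.42 times higher from the length- and GC-adjusted fold changes, in which Slc7a11 does not fall. Slc3a2 to Slc7a5 went from 4.69 ± 0.225 to 8.48 ± 0.522 (mean ± SD, n = 3 each). Within serine synthesis, Psph to Psat1 went from 0.104 ± 0.00428 to 0.191 ± 0.0062. Phgdh to Psat1 went from 0.663 ± 0.00482 to 0.846 ± 0.0685, 1.28 times higher, but this turned to 0.864 times with adjustment. Ddit3 to Atf4 went from 0.0641 ± 0.000702 to 0.136 ± 0.0223. None of these 5 ratios overlapped between groups, and each had an exact two-sided permutation p of 0.1 (0.1 adjusted over the 5), the smallest that 3 against 3 allows. The ratios were chosen after the values were seen. With adjustment the other 3 ratios were 1.86 (Slc3a2 to Slc7a5), 1.77 (Psph to Psat1) and 2.50 times higher (Ddit3 to Atf4), against 1.81, 1.83 and 2.12 times without it.

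**Figure D4:**
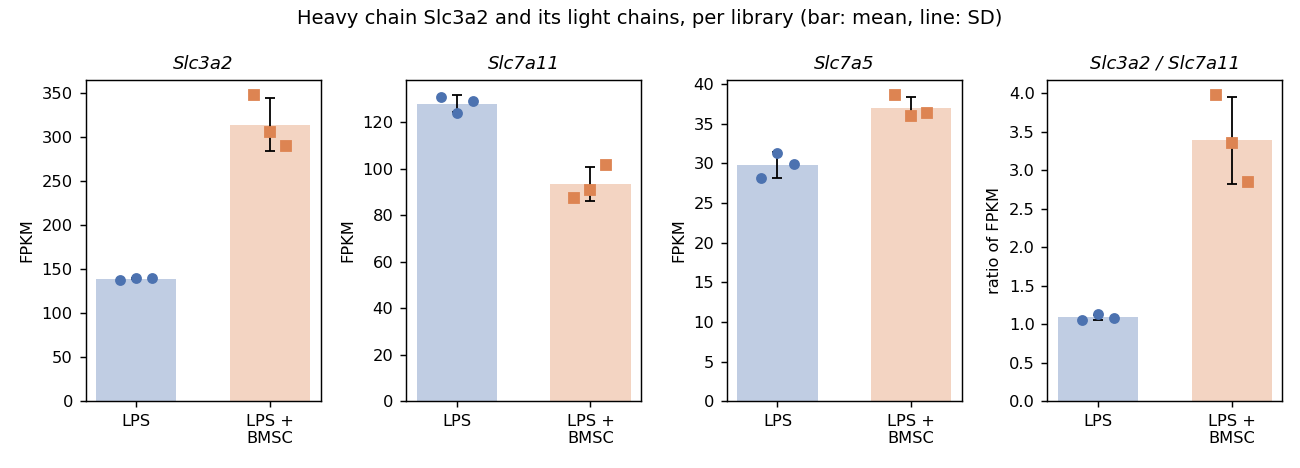
Deposited FPKM of the heavy chain Slc3a2 and the light chains Slc7a11 and Slc7a5 in each library, and the ratio of Slc3a2 to Slc7a11, with mean (bar) and SD (line) of 3 libraries per group. Slc3a2 and Slc7a11 are near 139 and 128 FPKM with LPS and near 314 and 93.3 FPKM in co-culture; the lower Slc7a11 level turns to higher with length and GC adjusted.

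Among transporters that work without the heavy chain, Slc1a4, a carrier of alanine, serine and cysteine, changed most. It stood at 7.64, 7.995 and 5.93 CPM with LPS and 23.5, 20.2 and 18.6 CPM in co-culture, 2.90-fold higher (log2 1.54, SE 0.13). Its relative Slc1a5, the glutamine carrier ASCT2, was far more abundant and rose only 1.19-fold (log2 0.25, SE 0.05). The Slc1a5 call was lost with library totals (log2 0.07, adjusted p 0.185), on FPKM (adjusted p 0.164) and after the length and GC adjustment (0.005, adjusted p 0.921). Slc38a2, the SNAT2 carrier of small neutral amino acids that is known to rise on amino acid shortage, was 1.14-fold lower (log2 -0.19, SE 0.08, adjusted p 0.0438). Its call was lost without any 1 of the LPS libraries (adjusted p 0.0603 to 0.123) or co-culture replicate 2 (0.0667), and it was higher by 0.36 after adjustment (adjusted p 1.84e-05). Slc6a9, the glycine carrier GlyT1, stood at 7.54, 7.14 and 7.81 CPM with LPS and 5.48, 6.15 and 6.88 CPM in co-culture. The groups lay apart, but the difference missed the threshold (log2 -0.28, SE 0.12, adjusted p 0.0505); it passed with library totals (log2 -0.46, adjusted p 0.00663), on FPKM (0.00733), after adjustment (-0.44, adjusted p 0.0105; 0.0108 with a replicate block too) and without co-culture replicate 3 (0.0219). Slc7a3, a cationic amino acid carrier, had 2, 6 and 4 counts with LPS and 4, 6 and 1 in co-culture and was not tested.

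Levels per length put the members in order within each condition. With LPS alone the highest deposited FPKM values were those of Slc3a2 (139 ± 1.00), Slc7a11 (128 ± 3.67) and Atf4 (120 ± 2.05; mean ± SD, n = 3). Slc1a5 followed at 83.7 ± 0.34, then Shmt2 at 78.9 ± 2.64 and Psat1 at 76.1 ± 1.31, which differ by little more than their spread. In co-culture Slc3a2 (314 ± 30.1), Atf4 (192 ± 7.44) and Atf3 (168 ± 19.0) led, the last pair within about their spread of each other, and Slc7a11 was 6th of 34. The regulators with the largest fold changes came from low levels. Chac1 went from 5.41 ± 0.602 to 41.2 ± 9.39 FPKM, Trib3 from 4.50 ± 0.0711 to 26.0 ± 4.95 and Ppp1r15a from 8.64 ± 0.508 to 40.9 ± 4.30. Eif4ebp1 moved from 24.5 ± 1.43 to 78.4 ± 15.3 FPKM, from rank 14 to rank 8. FPKM values are not TMM-scaled, so ratios of group means in FPKM differ from the fold changes above. They also lack the length and GC adjustment, with which Slc7a11 was higher in co-culture (log2 0.58), so its lower rank there rests on unadjusted values.

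The co-culture libraries were not alike for these genes. Of the 26 members called higher, 23 were highest in co-culture replicate 1. Among all 4160 genes called higher, 76.7% were highest in that library. Relative to the mean of the 3 co-culture libraries, these members had a median log2 deviation of 0.17 in replicate 1, -0.05 in replicate 2 and -0.11 in replicate 3, against 0.11, -0.03 and -0.08 for all genes called higher. In the LPS libraries the members' median deviations were 0.02, 0.01 and -0.02. Without co-culture replicate 1, 27 members were called higher and 3 lower, and the member median was 0.73. What set replicate 1 apart was not tested.

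**Figure D5:**
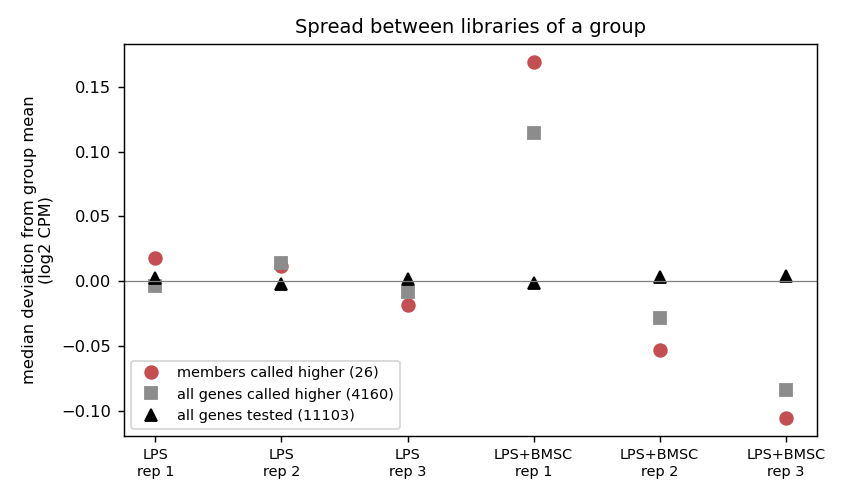
Median deviation of log2 CPM from the mean of the library's own group, for the 26 members called higher, all 4160 genes called higher and all 11103 genes tested, in each library. Co-culture replicate 1 is high for the members and for all genes called higher, while the medians of all genes tested lie near 0.

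Upstream of ATF4, the eIF2 kinases were lower or did not pass. Of 15 genes for eIF2 kinases, their partners, eIF2, its exchange factor eIF2B and a phosphatase partner, 7 rose and 7 fell, with a median of 0.11. Each count is 46.7% of the list, beside 37.5% higher and 38% lower among all genes tested. The PKR gene Eif2ak2, a sensor of double-stranded RNA that interferon also induces, fell 1.80-fold (log2 -0.85, SE 0.05, adjusted p 8.03e-07). The PERK gene Eif2ak3, which senses endoplasmic reticulum stress, was 1.84-fold lower (log2 -0.88, SE 0.14) and the GCN2 gene Eif2ak4, which senses uncharged tRNA, 1.54-fold lower (log2 -0.62, SE 0.08). The haem-regulated kinase gene Eif2ak1 did not pass (log2 0.11, adjusted p 0.180), but was called higher after adjustment (0.24, adjusted p 0.00513). The GCN2 inhibitor Impact fell 2.03-fold. Of the eIF2 subunits, Eif2s3x fell 2.48-fold (log2 -1.31, SE 0.09), while Eif2s2 rose 1.33-fold. All 5 eIF2B subunit genes rose, led by Eif2b2 (1.92-fold) and Eif2b3 (1.49-fold); after adjustment Eif2b1 was at 0.02 (adjusted p 0.727) and Eif2b4 at -0.17 (adjusted p 0.0424). With library totals, 4 genes of the list rose instead of 7. Ppp1r15b, the constitutive counterpart of Ppp1r15a, fell 1.53-fold (log2 -0.62, SE 0.07), opposite in direction to Ppp1r15a.

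Further genes reported as ATF4 targets also mostly rose, with 9 of 13 (69.2%) higher, 3 (23.1%) lower and a median of 1.00. Among all genes tested 37.5% were higher and 38% lower. The mTORC1 inhibitor Ddit4 rose 8.60-fold (log2 3.10, SE 0.10) and Vegfa, an angiogenic factor, 6.52-fold (log2 2.70, SE 0.06). Both are also known targets of other factors such as HIF. The tRNA export factor Xpot fell 1.73-fold (log2 -0.79, SE 0.07). Klhl24 was 1.47-fold lower, a call lost after adjustment (log2 0.19, adjusted p 0.0520). After adjustment 8 of the list rose and 1 fell, with a median of 0.45.

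The cytosolic aminoacyl-tRNA synthetase genes, many of them known ATF4 targets, gave 15 higher and 3 lower of 20, with a median of 0.36. Those shares were 75% and 15%, beside 37.5% and 38% of all genes tested. Sars rose 2.31-fold (log2 1.21, SE 0.09) and Gars 1.60-fold (log2 0.68, SE 0.06). Iars fell 1.43-fold (log2 -0.51, SE 0.07), and Eprs was 1.19-fold lower (log2 -0.25, SE 0.05) but higher by 0.56 after adjustment. Amino acid transporters outside the module mostly fell. Of 15 tested, 11 (73.3%) fell and 2 (13.3%) rose, beside 38% and 37.5% of all genes tested (median log2 fold change -0.50). The lysosomal and surface carrier Slc36a4 fell 2.05-fold (log2 -1.04, SE 0.07) and the mitochondrial glutamate carrier Slc25a22 fell 1.54-fold (log2 -0.63, SE 0.07). Slc38a7, a glutamine carrier of lysosomes, rose 1.38-fold (log2 0.47, SE 0.07). Among further light chains of the Slc3a2 heavy chain, Slc7a7 was 1.31-fold higher (0.12 after adjustment, adjusted p 0.351), while Slc7a6 fell 1.33-fold and Slc7a8 fell 1.48-fold. After adjustment 4 of these transporters rose and 10 fell.

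Of 28 further enzymes of amino acid and folate metabolism, 8 were higher, 9 were lower and 11 did not pass, with a median of -0.01. The shares called, 28.6% higher and 32.1% lower, were not above the 37.5% and 38% of all genes tested. Asl, which releases arginine from argininosuccinate, rose 2.43-fold (log2 1.28, SE 0.10) and Bcat2, the mitochondrial branched-chain transaminase, rose 1.98-fold (log2 0.99, SE 0.08). Mtr, the methionine synthase, fell 1.88-fold (log2 -0.91, SE 0.08). The cytosolic counterparts of the mitochondrial folate enzymes did not rise: Shmt1 did not pass (log2 0.05, adjusted p 0.533), and Mthfd1 was lower by log2 -0.36 (SE 0.07).

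In GENCODE M21 (GRCm38) all of these key members are protein-coding genes. Atf4 (ENSMUSG00000042406) lies on chromosome 15 from 80255184 to 80257541, Chac1 (ENSMUSG00000027313) on chromosome 2 from 119351229 to 119354381 and Trib3 (ENSMUSG00000032715) on chromosome 2 from 152337422 to 152344032. Slc3a2 (ENSMUSG00000010095) lies on chromosome 19 from 8706882 to 8723369. Counts are per gene, and which exons or UTRs they cover is not known from the table.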

How the data were processed

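The authors deposited 1 table with a raw read count and an FPKM value per gene and library per the file headers; FPKM divides by gene length and library size, with no TMM scaling. HISAT2 2.0.5 and mm10 are named in the submitters' processing notes. No source used here states the strand setting or annotation, so overlapping or antisense genes cannot be separated. Of 21959 rows, 1 held no values. Table start positions equal GENCODE M21 for 517 genes, so printed gene positions come from M21 by identifier, and promoters from RefSeq.

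Counts were tested with the robust quasi-likelihood fit of edgeR 4.0.16 in R 4.3.3, TMM scaling, the default filter by group (11103 genes) and group as the only term; the code was first tested on simulated data. P-values weigh the group difference against the spread between libraries of a group, and cover cultures of the RAW264.7 line only. An adjusted p of 0.05 was the threshold. CPM values are TMM-scaled. The biological coefficient of variation was 7.05%. Alternatives were RLE factors, library totals, DESeq2 1.42.0, limma 3.58.1 on log2(FPKM + 1) for genes with mean FPKM of at least 1, a minimum of 10 counts per library, no filter, a replicate block, an offset from natural splines (5 degrees of freedom each) of gene length and GC content per library, block and offset together, and leaving out each library. Named genes are all members, by role, with values per library for Atf4, for called members of at least 2-fold and for those not passing or not tested, plus the 2 higher and 2 lower genes of smallest p in each further list. One gene that this rule names is not reported here. Others were chosen after their values were seen. Members and lists were chosen with earlier results of these data known. The floor of 3 counts covers counting error only.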

Additional observations from a re-analysis of the deposited data

How the results depend on the processing

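Of the 31 tested members, 21 kept their direction and side of the threshold under all 15 alternatives, and Pycr1 under the 14 it could be run in, being below the FPKM minimum. The median log2 fold change of all genes moved from 0.001 to -0.18 with library totals, and the share of calls that were higher from 49.6% to 38.3%. The member median was 0.84, 0.66 with library totals, 0.55 on FPKM, 0.58 with the length and GC offset, 0.58 with block and offset together, and 0.73 to 0.85 when 1 library was left out. Members called higher were 26, and 22 to 27 under all alternatives. Members called lower were 3, and 1 to 4 under all alternatives, with 1 under block and offset together. Directions turned for Psat1 (-0.082 with library totals and -0.081 on FPKM) and Aldh18a1 (-0.023 with library totals, -0.025 on FPKM, -0.048 with the offset and -0.049 with block and offset). The offset, alone and with the block, turned Phgdh (-0.072 and -0.072), Slc7a11 (0.58 and 0.58) and Slc38a2 (0.36 and 0.36). Of the eIF2 list, 4 rose with library totals. Of the further ATF4 targets, 1 fell with the offset. Of the further transporters, 1 rose with library totals, 1 on FPKM, 4 with the offset and 4 with block and offset. Of the further enzymes, 5 rose and 14 fell on FPKM. The offset, a choice made for the ratios after seeing the data, took Phgdh to Psat1 from 1.28 to 0.864 times. The cause of these shifts was not tested. The replicate numbers did not pair the libraries: correlations of same-numbered deviations were -0.042, -0.024 and 0.04. With the replicate block 25 members were called higher and 3 lower, and 4070 and 4147 of all genes. Depth limits Cbs and Slc7a3, which were near the floor, while Vldlr had 0 counts in every library.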
